A study of Mus musculus with 44 samples.

Results

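Satellite glial cells (SGCs) sorted from the dorsal root ganglia of naive mice were compared with whole ganglia (DRGs) that went through the same dissociation and fixation without a sort. The members are the 8 libraries of the naive expression table, 4 labelled as sorted SGCs and 4 as DRGs, out of 44 libraries in the series. Both groups came from C57BL/6 mice aged 9 weeks, and the labels name no mutation, surgery or drug for either. L3 and L4 ganglia were used for both, and the SGC cells were also stained with antibodies and a DNA dye and then sorted by flow cytometry. The antibodies are not given in the sources used here. Of the other libraries, only those after sham surgery serve here, as a second readout of the same genes: 8 of SGCs sorted in the same way 3 or 14 days after it, and 6 of neurons from male and female mice 8 days after it, taken from L3–L5 ganglia with a magnetic isolation kit, all from C57BL/6 mice aged 9 to 11 weeks. No label says which animals stand behind a library or whether animals were pooled, so the p-values given here reflect how much these libraries vary, which may be technical.

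SGCs derive from the neural crest and wrap the cell bodies of sensory neurons in a thin sheath. They are coupled by gap junctions, take up potassium and transmitter around the neuron, and share much of their expression with Schwann cells and astrocytes. A whole ganglion holds SGCs as well, together with neurons, Schwann cells, blood vessels, connective tissue and blood, so a gene used only by SGCs is present in both groups and more diluted in the DRGs. In these bulk libraries, fewer cells of a type and less RNA per cell cannot be told apart.

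Values are FPKM, the fragments of a transcript divided by its length in kilobases and by the size of the library. The files used here hold no read counts, so the depth of each library is unknown. Between 11441 and 12157 genes reached 1 FPKM in the SGC libraries and 12876 to 13173 in the DRG libraries. Across all genes, log2 values of 2 SGC libraries correlated at 0.848 to 0.891, those of 2 DRG libraries at 0.924 to 0.943, and those of an SGC and a DRG library at 0.708 to 0.819. No pair of libraries was identical.

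The labels were first checked against cell type markers. The 4 SGC markers Fabp7, Gja1, Kcnj10 and Cdh19 summed to 10390 to 16133 FPKM in the SGC libraries and 3396 to 5118 in the DRG libraries, and all of them were higher in each SGC library than in any DRG library. Gja1, the gap junction protein connexin 43, stood at 134, 138, 111 and 147 FPKM in the SGC libraries and 31.3, 38.3, 27.9 and 49.7 in the DRG libraries. Kcnj10, the inward rectifier potassium channel of glia, stood at 59.8, 59.9, 74.3 and 74.8 FPKM against 24.1, 23.01, 24.3 and 31.9. Neuron markers had not vanished: the 11 measured ones summed to 94.3 to 276 FPKM in SGCs against 2548 to 4560 in DRGs. SGC replicate 2 held the highest SGC value for 8 of these 11 neuron markers.

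Markers of blood were nearly absent from the sorted cells. The 5 erythrocyte markers summed to 0.704 to 1.11 FPKM in SGCs against 1352 to 3220 in DRGs, and the 7 neutrophil markers to 0 to 0.143 against 556 to 627. The 12 macrophage markers summed to 3.65 to 8.52 FPKM against 93.2 to 108, with C1qa and Cd163 listed at 0 in all 4 SGC libraries. Lymphocyte markers summed to 0 to 3.21 FPKM against 7.73 to 10.8, and 6 of the 10, among them Cd3e and Ms4a1, were listed at 0 in every SGC library. Contractile markers of vessel walls were low as well: the 8 mural markers summed to 7.83 to 12.7 FPKM against 136 to 188. Of the 4 mural markers tested and above 0 in both groups 3 fell. Pdgfrb rose instead, from a mean of 3.61 FPKM in DRGs to 6.2 in SGCs, with overlapping groups (limma adjusted p = 0.036). Its call was lost without DRG replicates 1, 2 or 3 or SGC replicates 1, 2 or 4.

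Several other cell types remained visible in the sorted cells. The 10 endothelial markers summed to 114 to 242 FPKM in SGCs against 56.3 to 106 in DRGs. Egfl7 had the highest SGC mean among them, 68.5 FPKM against 19.6 in DRGs, but was not called (limma adjusted p = 0.0663). The 9 fibroblast markers summed to 151 to 422 FPKM against 199 to 299, and the 8 perineurial and meningeal markers to 35.9 to 61.2 against 20.97 to 30.9. The 12 myelinating Schwann cell markers summed to 648 to 749 FPKM against 1329 to 1791. Cdh5, the cadherin of endothelial junctions, rose from 3.08 ± 0.153 FPKM in DRGs to 10.8 ± 3.55 in SGCs (SD, n = 4 each; limma adjusted p = 0.00069), and Cldn5, the endothelial claudin, from 6.67 ± 2.06 to 16.8 ± 6.97 (adjusted p = 0.0136). Of the 10 endothelial markers 4 rose and none fell (8 rose without SGC replicate 1), where 16.9% of all genes tested rose and 27.3% fell. The part of these cells in the results below was not tested. SGC replicate 4 held the highest SGC value of all 6 fibroblast markers tested, and DRG replicate 4 the highest DRG value of the same 6.

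**Figure D1:**
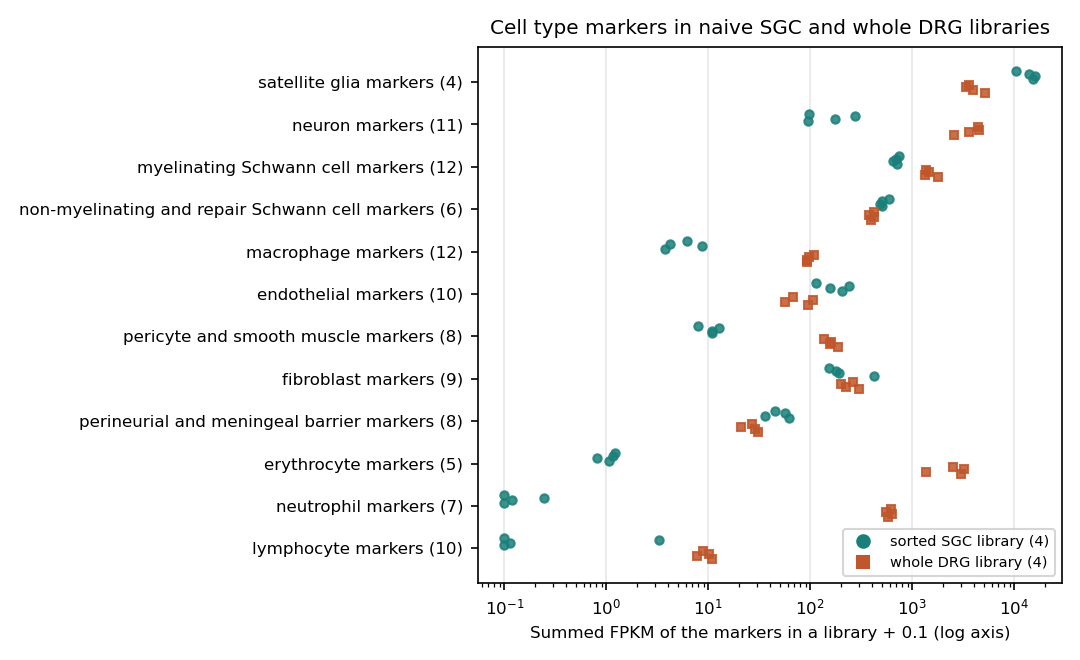
Summed FPKM of cell type markers in each library, on a log axis with 0.1 added, with the number of markers in brackets; circles are the 4 sorted SGC libraries and squares the 4 whole DRG libraries. Erythrocyte, neutrophil, macrophage and mural sums are far lower in the SGC libraries, while the SGC, non-myelinating Schwann cell, endothelial and perineurial sums are higher in every SGC library than in any DRG library. Ncam1 makes up most of the non-myelinating Schwann cell sum in SGCs, and 4 of the 6 markers in it fell.

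Schwann cell genes did not move as 1 group. Markers of non-myelinating and repair cells summed to 479 to 586 FPKM in SGCs and 379 to 422 in DRGs, and Ncam1 alone made up most of the SGC sum. Of 11 markers of myelinating cells 7 fell and 1 rose (median −1.43), and of 6 of non-myelinating and repair cells 4 fell and 2 rose (median −2.63). Pmp22, a membrane protein of the myelin sheath, fell from 782 ± 101.9 to 243 ± 12.4 FPKM (SD, n = 4 each). Ncmap, a membrane protein of the myelinating Schwann cell, stood at 1.67, 0.762, 0.7699 and 0 FPKM in SGCs and 52.5, 46.8, 42.2 and 75.4 in DRGs, and the tight junction gene Cldn19 at 0.0172 to 0.687 against 9.02 to 20.4. Mal, a lipid raft protein of myelin, rose instead, by 0.88 on the log2 scale (limma adjusted p = 0.00312). Ngfr, the p75 neurotrophin receptor of immature and repair Schwann cells and of some neurons, was at 1.05, 1.37, 0.301 and 0.821 FPKM in SGCs and 36.7, 21.6, 30.8 and 26.4 in DRGs, while the neural adhesion gene Ncam1 rose from 159 ± 33.95 to 469 ± 45.6. The groups did not overlap for any of these 6 genes.

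The comparison of sorted SGCs with DRGs tested 12749 genes above 0 in both groups, on log2(FPKM + 1), a scale that understates the change of low genes. A gene was called at an adjusted p under 0.05 (limma, Benjamini-Hochberg over all genes tested): 2156 genes, 16.9%, were higher in SGCs and 3475, 27.3%, were lower, and the median difference over all genes was −0.12. Overlap was counted over all 12749 genes, called or not. The groups did not overlap for 2130 genes with the higher mean in SGCs, 16.7%, and 3369 with the lower mean there, 26.4%. How the libraries are scaled shifts this balance. Of the calls, 38.3% were higher as deposited, 58.8% after quantile normalization, 49.5% after rescaling to the protein-coding sum and 12.03% after rescaling to a common sum, which moved the median of all genes to 0.17, 0.04 and −0.46. MicroRNA genes, which are short, took 20.2% to 41.6% of the FPKM sum of the SGC libraries and 17.8% to 31.3% of that of the DRG libraries. Every list below is therefore read against the values over all genes. Where counts are given after rescaling to a common sum, the first is of genes higher and the second of genes lower. With that scaling 644 genes were higher and 4709 lower, out of 11507 tested and above 0 in both groups. List members under the filter at that scaling are in neither count.

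Large falls were more common than large rises. Of the genes called higher 786 differed by over 1 on the log2 scale, 118 by over 1.5 and 19 by over 2, while 2172 genes fell by over 1, 805 by over 2 and 82 by over 4. Among the 1157 protein-coding genes above 0 in all 8 libraries and with an SGC mean of at least 50 FPKM, 200 were over 2-fold higher by the ratio of means, 31 over 3-fold and 5 over 4-fold. Those 5, named after their values were seen, were Smim1, Tcf4, Stag2, Plscr2 and Jag1. Smim1, a small membrane protein, had the highest ratio at 6.95, but its SGC values of 124, 15.5, 34.5 and 38.7 FPKM and its DRG values of 5.65, 3.54, 15.7 and 5.74 overlap. Stag2, a cohesin subunit, was not called (adjusted p = 0.074), with SGC replicate 3 at 11.6 FPKM and DRG replicate 3 at 76.0, out of line with the rest of their groups. Several glial genes had ratios between 3 and 4: the ratio was 3.602 for Gja1, 3.57 for Sox2, 3.54 for Nr2f2, 3.495 for Fabp7, 3.49 for Itgav, 3.46 for Hey2 and 3.37 for Ptn. In the other direction, of 1296 such genes with a DRG mean of at least 50 FPKM, 75 were over 10-fold and 28 over 20-fold lower in SGCs.

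**Figure D2:**
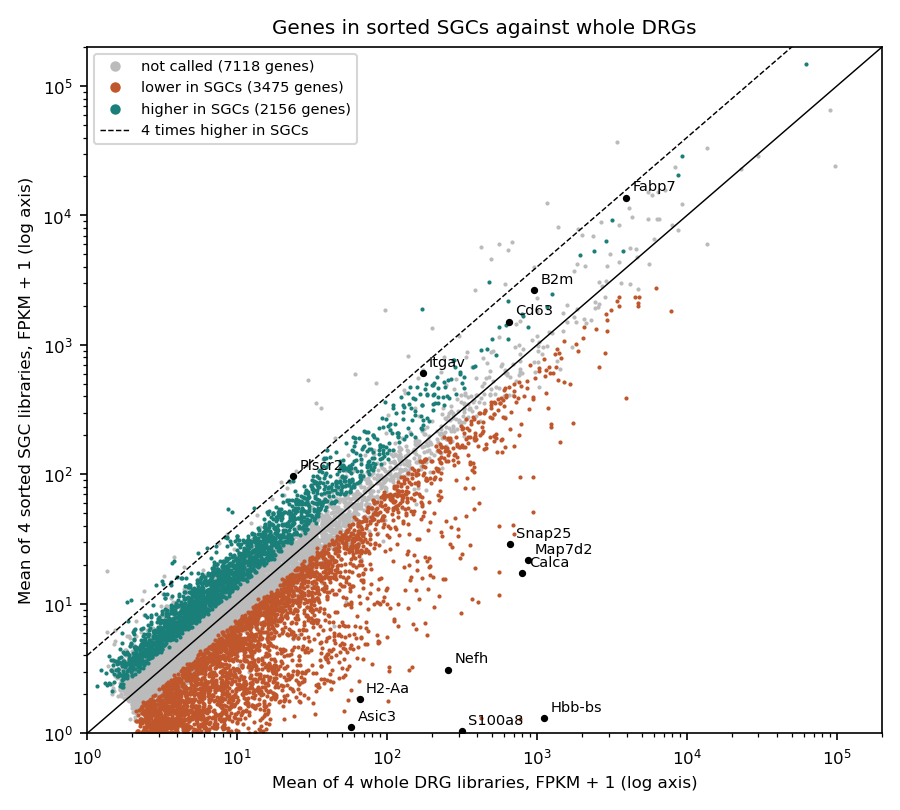
Mean FPKM + 1 of each gene tested and above 0 in both groups, whole DRGs on the x axis and sorted SGCs on the y axis, both log axes; the solid line is equality, the dashed line 4 times higher in SGCs, and colours are the calls. Of the genes called higher 19 differ by over 2 on the log2 scale, while the 805 genes that fell by over 2 spread far under the solid line.

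Transcription factors of the glial lineage rose together. Of 17 measured glial and neural crest factors 15 rose and none fell, with a median of 1.18 against −0.12 over all genes (10 and 1 after rescaling to a common sum). Sox2, a factor of neural stem cells and immature glia, stood at 70.5, 55.5, 68.3 and 78.2 FPKM in SGCs and 18.7, 12.4, 22.2 and 23.1 in DRGs, a difference of 1.81 ± 0.21 (SE; limma adjusted p = 0.000196). Nr2f2, the orphan nuclear receptor COUP-TFII, stood at 136, 132, 109.9 and 145 FPKM against 35.7, 31.02, 35.5 and 45.5 (1.80 ± 0.15; adjusted p = 4.53e-05). Its relative Nr2f1 rose by 1.72, the neural crest factor Foxd3 by 1.64 and Sox10, which all peripheral glia use, by 1.06, with no overlap of the groups for any of these 5 genes. The increase of Sox10, from 75.2 ± 15.6 to 155 ± 5.51 FPKM, was less than that of Sox2, and this difference between the genes was not tested. Among symbol families, 7 of 12 Sox genes and 8 of 10 Id, Hes and Hey genes rose, and 1 of each fell (5 and 2, and 5 and 1, after rescaling to a common sum).

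Factors of sensory neurons fell. Of 14 above 0 in both groups 13 fell and none rose (median −2.03), and Runx3 and Shox2 were listed at 0 in all SGC libraries. Pou4f1, which specifies sensory neurons, stood at 15.2, 42.5, 11.3 and 5.07 FPKM in SGCs and 200.2, 226, 176 and 166 in DRGs (−3.66 ± 0.51; limma adjusted p = 0.00052). Isl1, its partner, stood at 1.59, 6.78, 1.11 and 1.53 FPKM against 42.8, 41.3, 38.9 and 30.2. SGC replicate 2 was the highest SGC library for both, as it was for 9 of these 14 factors.

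Notch genes were led by a ligand. In this pathway, a ligand on 1 cell binds a Notch receptor on its neighbour, the receptor is cleaved, and the freed part joins the DNA-binding protein RBPJ to switch on Hes and Hey repressors. Jag1, a Notch ligand, stood at 91.2, 108, 62.2 and 92.4 FPKM in SGCs and 19.1, 20.7, 17.2 and 27.5 in DRGs (2.01 ± 0.20; limma adjusted p = 0.000117). Among the receptors, Notch1 rose by 1.19 and Notch2 by 1.40. Hey2, a target, stood at 125, 136, 127 and 144 FPKM against 35.9, 35.3, 37.9 and 44.5 (1.77 ± 0.12; adjusted p = 1.9e-05), and Hes5 rose, with 6.71 to 18.5 FPKM in SGCs and 3.28 to 5.56 in DRGs. Of 22 members 11 rose and 2 fell (median 0.62; 7 and 4 after rescaling to a common sum). Hes6, a Hes relative that opposes Hes1, fell from 4.79 ± 0.524 to 2.002 ± 0.879 FPKM, and the coactivator Maml3 fell by 0.96, with overlapping groups and a call lost without DRG replicates 2, 3 or 4 or SGC replicates 3 or 4 (adjusted p from 0.0595 to 0.0897) and after quantile normalization (0.168).

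The RBPJ letters GTGGGAA, searched on both strands, were in a promoter of 4 of the 23 Notch pathway genes with a RefSeq entry, and of 7.25% of all 27025 genes in that table. They were in 2 of the 8 members that rose, Hes5 and Hey2, and in 2 of the 15 others, Lfng and Psen2, which were not called. A promoter here is the 250 bases before and 50 bases after a gene's start (RefSeq, GRCm38.p6). The matches of the 2 repressors described above are shown on the strand of the gene, with the motif in capitals, from chr4:154960830-154960856 (+), chr4:154960687-154960713 (+) and chr10:30842974-30843000 (−).
Hes5, motif from 83 bases before the start: gccgccgagtGTGGGAAcggccgcggc
Hes5, motif from 226 bases before the start: ggcgagcgcgTTCCCACagcccggaca
Hey2, motif from 207 bases before the start: cgcggtggcaTTCCCACgcctctgcca
A match is a string of letters and not a measured binding site.

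Most Wnt pathway genes rose, among them receptors. R-spondins bind the receptors Lgr4 and Lgr5 and so keep Frizzled receptors at the cell surface. Lgr4 stood at 171, 174, 113 and 153 FPKM in SGCs and 30.2, 40.6, 32.4 and 50.95 in DRGs (1.97 ± 0.21; limma adjusted p = 0.000132), and Lgr5 at 31.1, 27.9, 30.4 and 39.6 against 9.07, 9.94, 10.5 and 13.7 (1.5 ± 0.17; adjusted p = 0.000173). Both genes were higher in each SGC library than in any DRG library. Of 25 pathway members 16 rose and 2 fell (median 1.03; 12 and 1 after rescaling to a common sum). The 2 that fell were ligands: Rspo2, an R-spondin, at 0.0121, 0.207, 0.245 and 0 FPKM against 4.003, 3.59, 3.65 and 2.07, and Wnt5a at 0.0781 to 1.14 against 1.46 to 1.99, whose call was lost without any 1 DRG library (adjusted p from 0.0644 to 0.1) and after quantile normalization (0.505). In the sham neurons, which are in a separately scaled table, Rspo2 was at 13.04 to 28.4 FPKM over 6 libraries, and in sham SGCs at 0 to 1.53 over 8.

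BMP and TGF-beta genes had 12 of 25 members higher and 3 lower (median 0.46; 4 and 3, with a median of 0.08, after rescaling to a common sum). The co-receptor Tgfbr3 rose from 7.55 ± 1.62 to 20.7 ± 1.68 FPKM and the decoy receptor Bambi from 2.604 ± 0.618 to 7.98 ± 0.906 (SD, n = 4 each). Smad9 and Smad1, transducers of BMP signals, fell by 1.81 and 0.85. Hippo pathway genes and YAP targets had 11 of 18 members higher and none lower (median 0.74; 5 and 0 after rescaling to a common sum). In this pathway the coactivator Yap1, which rose by 1.23, joins TEAD factors such as Tead2 (1.41) to switch on genes such as Cyr61 (1.33), which stood at 87.05, 69.3, 65.3 and 67.1 FPKM in SGCs and 24.9, 22.4, 28.5 and 38.5 in DRGs.

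Most growth factor receptors rose. Of 16 receptor tyrosine kinases 11 rose and 3 fell (median 0.71; 1 rose and 3 fell after rescaling to a common sum). Among those that fell were Ntrk3, the receptor of neurotrophin-3, at 0.89 to 3.4 FPKM against 30.7 to 43.99, and Ret, the GDNF receptor, at 0.799 to 3.29 against 10.99 to 17.5. Axl, a receptor for ligands that mark dying cells, rose by 1.19 and Erbb3, the neuregulin receptor of glia, by 1.07. Erbb2, its partner, had the largest increase at 1.55, but it was listed at 0 in 3 of the 4 DRG libraries and at 3.38 FPKM in the other, inside the SGC range of 2.67 to 3.96. That call was lost without DRG replicates 1, 2 or 3 or SGC replicate 4 (adjusted p from 0.0542 to 0.0758), and without DRG replicates 1, 2 or 3 only 6 of these receptors were called higher. Feedback genes of the ERK pathway, which receptors switch on, had 4 of 11 higher and 2 lower (median 0.20; 1 and 3, with a median of −0.27, after rescaling to a common sum): the phosphatase Dusp6 rose by 1.08, Spry2 by 0.93 (adjusted p = 0.0543 without DRG replicate 1), and Dusp5 and Spry4 fell by 2.40 and 0.81.

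Secreted factors moved both ways. Of 26 above 0 in both groups 7 rose and 11 fell (median −0.46; 4 and 11 after rescaling to a common sum). Ptn, pleiotrophin, a heparin-binding factor that acts on axons, stood at 2110.3, 2300.4, 1877 and 2392 FPKM in SGCs and 602, 522, 636 and 816 in DRGs (1.76 ± 0.17; limma adjusted p = 7.74e-05). Its relative midkine, Mdk, rose by 1.24 and the angiogenic factor Vegfa by 1.51, from 9.11 ± 1.48 to 27.9 ± 4.597 FPKM. Fgf12, an intracellular relative of the fibroblast growth factors that binds sodium channels, fell by 4.12, Fgf1 by 3.31, Bdnf by 3.30 and Nrg1, the ligand of Erbb3, by 3.21. Cntf, a cytokine known from myelinating Schwann cells, was listed at 0 in all 4 SGC libraries and at 18.1 to 28.1 FPKM in the DRGs.

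**Figure D3:**
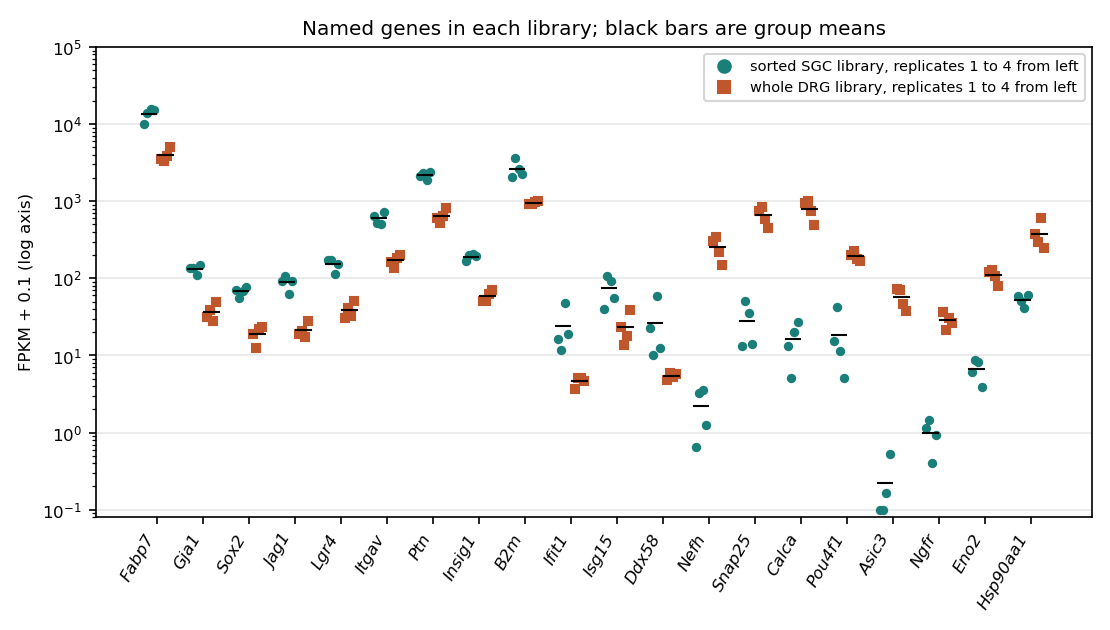
FPKM + 0.1 of 20 named genes in each library on a log axis, circles for the 4 sorted SGC libraries and squares for the 4 whole DRG libraries, each in replicate order from left to right; black bars are group means. The groups do not overlap for any of the 20 genes, and SGC replicate 3 is the highest library for Ifit1 (48.4 FPKM) and Ddx58 (59.5 FPKM).

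Most cholesterol genes rose, for synthesis and for export. Of 22 genes of synthesis and uptake 15 rose and none fell (median 0.77; 4 rose and 2 fell after rescaling to a common sum). Insig1, which holds back the sterol sensor and is itself one of its targets, stood at 169, 198, 204 and 196 FPKM in SGCs and 50.5, 51.1, 62.8 and 70.4 in DRGs (1.70 ± 0.14; limma adjusted p = 4.66e-05). On the export side 9 of 14 genes rose and 1 fell (median 0.77; 6 and 2 after rescaling to a common sum). Apoc1, a lipoprotein component, stood at 211, 253, 369 and 472 FPKM against 111, 76.6, 121 and 124, the cholesterol exporter Abca1 rose by 1.24 and Apoe, the main carrier of neural tissue, from 2869 ± 607 to 6298 ± 1256 FPKM. Abcg4, an exporter known from neurons, fell by 1.10.

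The core letters of the sterol regulatory element, TCACNCCAC on both strands, were in a promoter of 1 of the 16 genes of synthesis and uptake with a RefSeq entry, and of 1.44% of all genes in the table. That gene was Hmgcs1, an early enzyme of cholesterol synthesis, at 423, 389.8, 406 and 459.5 FPKM in SGCs and 174, 190.5, 171 and 203 in DRGs. The match lies at chr13:119690204-119690232 (+) and is shown with the motif in capitals.
Hmgcs1, motif from 137 bases before the start: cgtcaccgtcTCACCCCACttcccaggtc
Absence of these exact letters from the other windows says nothing of the factor.

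Fatty acid genes divided by enzyme. Of 17 binding and acyl-CoA handling genes 7 rose and 4 fell (median 0.23; 6 and 5, with a median of −0.19, after rescaling to a common sum), and Fabp3 and Pmp2 were listed at 0 in all SGC libraries. Fabp7, the brain-type fatty acid binding protein, stood at 10145, 13788, 15898 and 15035 FPKM against 3508, 3318, 3857 and 5014. Dbi, the acyl-CoA binding protein, was the most abundant protein-coding gene of the SGC libraries, at 20694 ± 3526 FPKM against 8711 ± 999 in DRGs (SD, n = 4 each; limma adjusted p = 0.000809; the call was lost after quantile normalization and with no filter). The lipid droplet coat gene Plin3 rose by 1.5 and the acyl-CoA synthetase Acsbg1 by 1.48, whereas the synthetase Acsl1 fell from 4.55 ± 0.392 to 0.347 ± 0.241 FPKM and Acbd7 by 1.92. In the family of elongases, desaturases and acyl-CoA synthetases 12 of 21 rose and 4 fell (7 and 4 after rescaling to a common sum), and in the cytochrome P450 family 9 of 16 rose and 3 fell (5 and 3), led by Cyp4f15 at 4.09 to 13.1 FPKM against 1.09 to 2.43.

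Interferon-induced genes were higher in sorted SGCs. Type I interferons act through Stat and Irf factors that bind a response element in the promoters of antiviral genes. Of 23 interferon-induced effectors 16 rose and 1 fell (median 0.93; 6 and 1 after rescaling to a common sum). Ifit1, an antiviral RNA-binding protein, stood at 16.2, 11.6, 48.4 and 19.1 FPKM in SGCs and 3.56, 4.95, 4.94 and 4.599 in DRGs (1.97 ± 0.38; limma adjusted p = 0.0029). Isg15, a ubiquitin-like modifier, stood at 40.2, 108, 92.5 and 54.8 FPKM against 23.2, 13.6, 17.7 and 38.3 (1.62 ± 0.38; adjusted p = 0.00859). The groups did not overlap for either gene, but SGC replicate 3 was the highest SGC library for 16 of the 23 effectors, with none highest in SGC replicate 1. The exception was Ifitm1, a restriction factor at the cell surface, which fell from 4.75 ± 0.572 to 0.172 ± 0.173 FPKM.

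Of 17 sensors and regulators above 0 in both groups 8 rose and none fell (median 0.67; 3 and 0 after rescaling to a common sum). Ddx58, the RNA sensor RIG-I, stood at 22.3, 10.1, 59.5 and 12.6 FPKM in SGCs and 4.68, 5.82, 5.09 and 5.69 in DRGs (1.77 ± 0.47; limma adjusted p = 0.0149). Zbp1, a sensor of Z-form nucleic acid, rose by 1.58 and the endosomal RNA receptor Tlr3 by 1.49, with 10.7 to 15.1 FPKM in SGCs and 3.36 to 4.27 in DRGs. The master regulator Irf7 was listed at 0 in all 4 DRG libraries and stood at 1.15 to 5.12 FPKM in SGCs. That 0 can be a failed estimate, and Irf7 overlaps Phrf1 on the other strand. In sham SGCs, 8 libraries of another table, Ifit1 was at 9.68 to 33.9 FPKM and Ddx58 at 8.79 to 56.5. In the 6 sham neuron libraries, scaled separately again, Ifit1 was at 16.3 to 75.7 FPKM and Ddx58 at 4.19 to 9.47. Ifit1 was thus not confined to the glial libraries.

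The interferon-stimulated response element was searched as the letters GAAA, any 2 bases and GAAA again, on both strands of the same RefSeq promoters. It was found in 12 of the 20 effectors with an entry. These were 9 of the 14 that rose and 3 of the 6 others. Over all 27025 genes of the table the share was 3.99%. The effectors were listed as interferon-induced genes, so a higher share among them says nothing of SGCs. Here too a match is not a measured binding site. Of these matches 1 is shown for each of 3 genes that rose, on the strand of the gene, with the motif in capitals, from chr19:34640775-34640804 (+), chr4:156200871-156200900 (−) and chr3:142530273-142530302 (+).
Ifit1, motif from 104 bases before the start: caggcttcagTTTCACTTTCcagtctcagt
Isg15, motif from 72 bases before the start: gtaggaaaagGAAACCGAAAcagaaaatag
Gbp7, motif from 53 bases before the start: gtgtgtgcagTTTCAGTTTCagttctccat
Gbp7, an interferon-induced GTPase, stood at 17.7, 15.02, 17.8 and 13.8 FPKM in SGCs and 4.27, 5.02, 4.59 and 5.3 in DRGs (1.56 ± 0.14; limma adjusted p = 6.29e-05), without the peak in SGC replicate 3.

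Antigen presentation differed by class. Class I molecules show peptides from inside nearly every cell, and class II molecules serve professional antigen-presenting cells. Of 20 class I genes 13 rose and none fell (median 0.70; 4 and 1 after rescaling to a common sum), though 7, 6 and 6 rose without DRG replicates 1, 2 and 3. B2m, the light chain, stood at 2064, 3631, 2625 and 2263 FPKM in SGCs and 918, 913, 977 and 1006 in DRGs (1.44 ± 0.18; limma adjusted p = 0.00036). The heavy chain H2-K1 rose by 1.23, H2-Q4 by 1.31 and the immunoproteasome subunit Psmb8 by 1.16. H2 genes are near-identical copies of each other, so reads could be split between them. Of 7 class II genes 6 fell and none rose (median −3.25): H2-Aa stood at 1.46, 0, 0.333 and 1.59 FPKM against 71.2, 63.2, 58.3 and 66.2, and Cd74, the invariant chain, at 1.25, 9.67, 0.217 and 10.6 against 158, 180.2, 108 and 172. Beside this, the macrophage marker Tyrobp fell from 32.8 ± 4.03 to 1.36 ± 0.999 FPKM and Fcer1g from 36.7 ± 1.64 to 1.45 ± 1.69, and their part was not tested.

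Most basement membrane genes rose. SGCs rest on a basement membrane of laminin, collagen IV and nidogen. Of 19 components and receptors 11 rose and 1 fell (median 0.77; 6 and 1 after rescaling to a common sum). SGC replicate 4 held the highest SGC value for 12 of the 19 and DRG replicate 4 the highest DRG value for 16, the libraries that were also highest for the fibroblast markers. Endothelial marker sums were higher in SGCs as well, and the part of either cell type was not tested. Nid1, the nidogen that links laminin to collagen IV, stood at 47.4, 57.3, 48.9 and 56.9 FPKM in SGCs and 17.9, 16.3, 17.4 and 23.3 in DRGs (1.45 ± 0.14; limma adjusted p = 0.000102), the laminin chain Lamc1 rose by 1.23 and the collagen chain Col4a1 by 1.06. The laminin receptor subunit Itga3 fell from 5.47 ± 0.156 to 0.802 ± 0.491 FPKM. In symbol families 13 of 26 collagens rose and 4 fell (5 and 5 after rescaling to a common sum), led by Col8a1 at 1.37, and 4 of 7 syndecans and glypicans rose and 1 fell (3 and 2), led by Sdc4, at 701, 618, 392 and 555 FPKM against 182, 199.5, 168 and 306. Of 14 adhesion G protein-coupled receptors 8 rose and 2 fell (3 and 3 after rescaling to a common sum), led by Adgrg6, a receptor that Schwann cells need to myelinate, at 33.4, 28.3, 30.01 and 28.2 FPKM against 8.35, 8.33, 10.1 and 12.9.

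Genes for the engulfment of dying cells had 9 of 19 members higher and 4 lower (median 0.53; 6 and 5 after rescaling to a common sum). Itgav, the alpha-V integrin that binds bridging proteins on dead cells, was among the most abundant, at 647, 527, 512 and 719 FPKM in SGCs and 164, 138, 185 and 201 in DRGs (1.80 ± 0.17; limma adjusted p = 7.65e-05). Megf10, an engulfment receptor of astrocytes and SGC precursors, stood at 21.7, 23.1, 23.5 and 24.97 FPKM against 6.67, 7.71, 8.42 and 9.27 (1.44 ± 0.13; adjusted p = 7.21e-05), and Dock1, an exchange factor of the engulfment machinery, rose by 1.41. Among the 4 that fell were Stab1, a receptor of macrophages, at 0 in 3 SGC libraries and 4.12 FPKM in replicate 2, against 5.54 to 9.02 in DRGs, and Elmo1, the partner of Dock1, which fell by 1.80.

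Ion and water handling genes moved both ways. Of 21 genes 11 rose and 8 fell (median 0.98; 10 and 10 after rescaling to a common sum). Aqp4, the water channel of astrocytes, stood at 22.2, 16.4, 22.8 and 19.3 FPKM in SGCs and 5.11, 6.02, 5.96 and 7.06 in DRGs (1.58 ± 0.15; limma adjusted p = 8.95e-05), and the chloride importer Slc12a2 rose by 1.43. The potassium channel Kcnk1 fell by 2.86. Clcn2, a chloride channel of glia, was called higher by 1.49, but it was at 0 in DRG replicates 2 and 3, its groups overlapped, and the call was lost without either (adjusted p = 0.0622 and 0.0595).

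Nucleotide enzymes and receptors divided likewise, with 6 of 18 higher and 10 lower (median −0.61; 3 and 8 after rescaling to a common sum; without DRG replicates 2, 3 and 4 only 5, 6 and 6 fell). The ATP hydrolase Entpd1 rose by 1.21 and Entpd2 by 1.0, while Entpd3, known from sensory neurons, stood at 0.315 to 1.504 FPKM against 14.1 to 24.4. The receptor P2ry12, best known from microglia and platelets, stood at 24.05, 33.03, 35.8 and 28.04 FPKM in SGCs and 9.69, 10.8, 9.83 and 12.8 in DRGs (1.40 ± 0.16; limma adjusted p = 0.000206), beside macrophage markers that summed to at most 8.52 FPKM in the same SGC libraries. P2ry1 fell by 2.32. Of 23 genes of serine synthesis and amino acid transport 11 rose and 4 fell (median 0.64; 5 and 8 after rescaling to a common sum). Psph, the last enzyme of serine synthesis, stood at 98.8, 90.3, 123.5 and 107 FPKM against 31.1, 35.6, 29.3 and 40.5, the cationic amino acid carrier Slc7a2 rose by 1.44 and the glial glutamate carrier Slc1a3 by 1.41. Asparagine synthetase, Asns, fell from 49.05 ± 15.9 to 2.21 ± 1.36 FPKM and the aspartate transaminase Got1 from 53.6 ± 12.04 to 9.03 ± 1.88.

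Most glycolytic genes fell. Of 29 genes of glycolysis, lactate and glycogen 18 fell and 4 rose (median −0.92; 1 higher and 16 lower after rescaling to a common sum). Eno2, the neuronal enolase, stood at 6.06, 8.63, 8.22 and 3.79 FPKM in SGCs and 122, 130.0, 108 and 78.7 in DRGs (−3.88 ± 0.25; limma adjusted p = 1.79e-05), and the phosphofructokinase Pfkp at 1.69 to 7.61 against 38.3 to 69.4. Forms used by most cells were lower as well: Gapdh stood at 169.5, 177, 191 and 177 FPKM against 499, 706, 408 and 454, and Ldha fell by 1.87. Among those higher were Pdk4, which holds back the entry of pyruvate into mitochondria, by 0.96, and the glucose carrier Slc2a1, a marker of endothelium and perineurium, by 0.96 with overlapping groups, a call lost without any of DRG replicates 1 to 3 or SGC replicates 2 or 4 (adjusted p from 0.051 to 0.0765).

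Stress genes differed by class. Of 19 cytosolic heat shock genes 10 fell and 3 rose (median −0.999; 1 higher and 12 lower after rescaling to a common sum). Hsp90aa1, the inducible Hsp90, stood at 58.6, 50.2, 41.1 and 60.8 FPKM in SGCs and 374, 293, 607 and 249 in DRGs (−2.76 ± 0.27; limma adjusted p = 9.83e-05), Hspb8 at 0.8995 to 5.303 against 30.8 to 56.3 and Hspb1 at 7.74 to 15.2 against 49.5 to 96.3. The inducible Hsp70 genes Hspa1a and Hspa1b, near-identical copies, rose by 1.10 and 1.15. Immediate early genes had 9 of 23 higher and 4 lower (median 0.36; none higher, 7 lower and a median of −0.09 after rescaling to a common sum; 5, 4 and 4 rose without DRG replicates 1, 2 and 3). Nr4a1 rose by 1.12 and Arc by 1.03 (groups overlapping, and adjusted p from 0.0589 to 0.0725 without DRG replicates 1, 2 or 3), while the injury factor Atf3 fell by 1.43 and Nr4a2 by 1.18. Of 20 chaperones and stress genes of the endoplasmic reticulum 3 rose and none fell (median 0.11; none higher, 6 lower and a median of −0.33 after rescaling to a common sum; 5 rose without SGC replicate 3), led by calnexin, Canx, at 0.85, and Dnajc3 at 0.72.

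Antioxidant genes were divided, with 11 of 31 higher and 10 lower (median 0.01; 4 and 13 after rescaling to a common sum; without DRG replicate 1 only 4 fell). The glutathione transferase Gsta4 stood at 161, 142, 172 and 168 FPKM in SGCs and 59.5, 62.3, 67.8 and 81.4 in DRGs, the peroxidase Gpx8 at 155, 169, 228 and 222 against 71.2, 73.7, 82.2 and 97.1, and the metallothionein Mt1 rose by 1.14. The sulfiredoxin Srxn1 fell from 27.6 ± 5.88 to 3.22 ± 0.673 FPKM, and Gclm, a subunit of the first enzyme of glutathione synthesis, by 1.45 (adjusted p from 0.0544 to 0.0653 without DRG replicates 1, 2 or 3). Of 27 lysosomal genes 8 rose and 9 fell (median −0.26; 2 and 14, with a median of −0.71, after rescaling to a common sum; 5, 4 and 4 rose without DRG replicates 1, 2 and 3). The collagen-cleaving Ctsk rose by 1.28 and the membrane protein Cd63 from 653 ± 98.3 to 1516 ± 136 FPKM, while Ctsb fell by 1.65 and the lipase Lipa by 1.49. Cell cycle genes had 6 of 20 higher and 3 lower (median 0.37; 4 and 4 after rescaling to a common sum), led by the G1 kinase Cdk6 at 22.2 to 40.6 FPKM against 7.51 to 13.6 and cyclin D1, Ccnd1, at 1.27. Cyclin E1, Ccne1, fell by 1.56 and the arrest gene Cdkn1a by 1.42, and Mki67 stayed under the filter of 1 FPKM in 4 libraries.

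**Figure D4:**
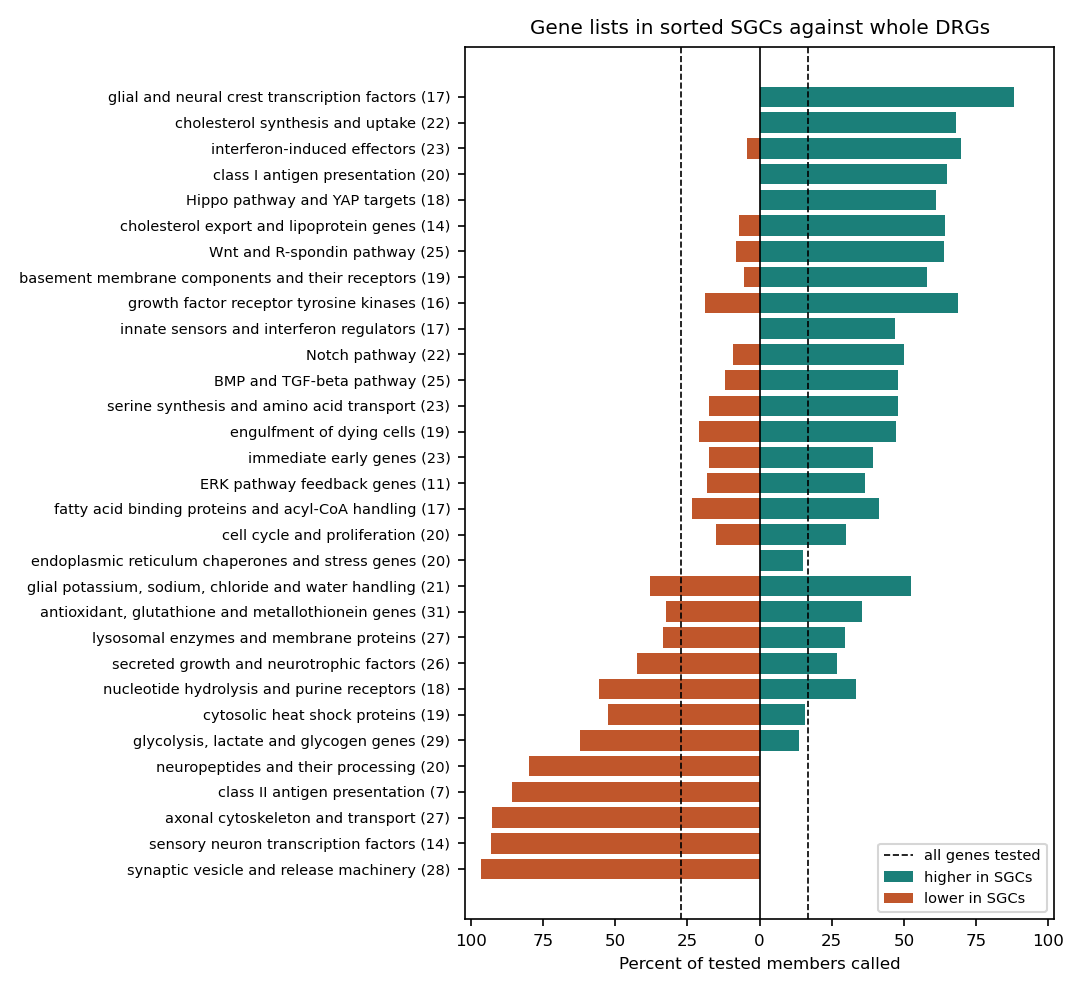
Percent of the tested members of each gene list, cell type markers left out, called higher (right) or lower (left) in sorted SGCs than in whole DRGs, with the number tested in brackets; the dashed lines are the 16.9% and 27.3% over all genes. Glial factors, interferon-induced effectors, receptor tyrosine kinases and cholesterol synthesis reach furthest to the right, and synaptic genes, sensory neuron factors and axonal cytoskeleton furthest to the left.

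The machinery of neurons was lower in nearly every measured part. Of 28 synaptic vesicle and release genes 27 fell and none rose (median −2.99), of 27 axonal cytoskeleton and transport genes 25 fell and none rose (median −2.73), and of 20 neuropeptide genes 16 fell and none rose (median −2.99). Nefh, the heavy neurofilament of large neurons, stood at 0.548, 3.21, 3.5 and 1.16 FPKM in SGCs and 308, 343, 217 and 149 in DRGs (−6.43 ± 0.40; limma adjusted p = 1.4e-05). Complexin 1, Cplx1, stood at 2.24, 6.91, 7.54 and 2.15 FPKM against 208, 229, 185 and 116, and Snap25, a core protein of vesicle fusion, at 13.2, 50.1, 35.03 and 13.8 against 751, 848, 589.6 and 447. The peptide gene Calca, which encodes CGRP, kept 13.1, 5.04, 19.97 and 26.7 FPKM in SGCs against 959.9, 993, 750.3 and 491, and Nmb, neuromedin B, was at 0 in 3 SGC libraries and at 36.5 FPKM in SGC replicate 3. Nmb overlaps Sec11a on the same strand, and how reads were divided between them was not tested.

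Several families of channels and receptors followed. Of 12 voltage-gated sodium channel genes 11 fell, and 1 rose. The voltage-gated potassium channels had 21 of 23 genes lower and the voltage-gated calcium channels 10 of 11, with 1 gene of each higher. The sodium channel Scn1a stood at 0.284 to 1.56 FPKM in SGCs and 17.6 to 32.2 in DRGs, the potassium channel subunit Kcnab2 at 0.886 to 6.26 against 49.8 to 63.99, and the calcium channel subunit Cacnb3 at 0.363 to 2.07 against 17.2 to 19.3. The serotonin-gated channel Htr3a was nearly absent, at 0, 0.308, 0.0229 and 0.366 FPKM against 16.4, 16.5, 15.8 and 12.6. Of 10 nicotinic and serotonin receptor genes 9 fell, of 9 GABA and glycine receptor genes 7 (Glrb differed by −3.47), of 9 synaptotagmins 8 (Syt1 differed by −3.45), of 12 contactins and neurexin relatives 9 (Cntnap2 differed by −3.48) and of 14 regulators of G protein signalling 12 (Rgs4 differed by −4.30). No member of these receptor, synaptotagmin and regulator families rose except 1 GABA or glycine receptor gene. Other channel families were mixed. Ionotropic glutamate receptors had 4 of 11 genes higher and 6 lower (2 and 6 after rescaling to a common sum). TRP channels had 2 of 9 higher and 5 lower (0 and 4). Inward rectifier and 2-pore potassium channels had 4 of 8 higher and 2 lower (2 and 3). Chloride channels had 4 of 17 higher and 5 lower (3 and 6).

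Several families of general cell machinery were also lower, where 16.9% of all genes tested rose and 27.3% fell. Of 37 proteasome subunits 26 fell and 2 rose (median −0.82), of 17 V-ATPase subunits 14 fell and 1 rose (median −1.04), and of 8 chaperonin subunits 7 fell and none rose (median −0.83). Of 94 nuclear-encoded subunits of the respiratory chain and ATP synthase 55 fell and 2 rose (median −0.63). After quantile normalization 40 of them fell (median −0.38), and 77 after rescaling to a common sum (median −1.08). Among 12 mitochondrially encoded genes 1 rose and none fell (median 0.06). After quantile normalization 2 of these 12 fell and none rose (median −0.03). After rescaling to a common sum 4 of the 12 fell and none rose (median −0.405). Cct5, a chaperonin subunit, stood at 28.2, 30.3, 30.01 and 28.6 FPKM in SGCs and 71.97, 97.8, 60.7 and 61.01 in DRGs, and the V-ATPase subunit Atp6v1g2 at 0.3698 to 6.98 against 36.99 to 55.3. Of 79 cytosolic ribosomal proteins 25 fell, 31.7% and so near the share over all genes, and 1 rose (median −0.30). After quantile normalization 8 of them fell and 7 rose. Spliceosomal and SR proteins leaned the other way, with 16 of 53 higher and 4 lower (median 0.26), but with none higher, 11 lower and a median of −0.13 after rescaling to a common sum.

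**Figure D5:**
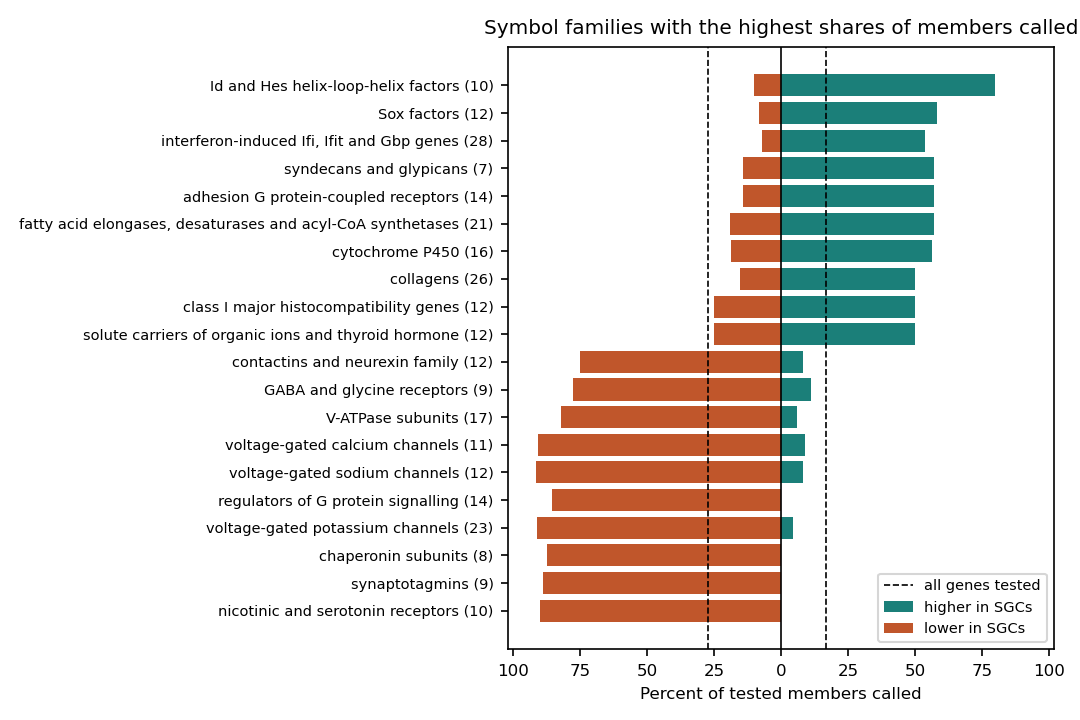
Percent of the tested members called higher (right) or lower (left) in sorted SGCs for the 10 symbol families with the highest share higher and the 10 with the highest share lower, with the number tested in brackets; the dashed lines are 16.9% and 27.3% over all genes. Id and Hes factors lead on the right with 8 of 10 genes, and voltage-gated sodium channels on the left with 11 of 12; the families were picked for these shares.

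Genes on none of the lists were ranked by their difference. Among called protein-coding genes with groups that do not overlap and a mean of at least 10 FPKM in the higher group, the 15 highest differed by 1.76 to 3.49. Lpar1, the lysophosphatidic acid receptor, was the most abundant of them, at 531, 476, 429 and 461 FPKM in SGCs and 122, 127.7, 137 and 177 in DRGs (1.76 ± 0.15; limma adjusted p = 4.69e-05). Plscr2, a phospholipid scramblase, stood at 113, 75.9, 116 and 81.01 FPKM against 18.5, 21.2, 26.3 and 24.4 (2.03 ± 0.18; adjusted p = 6.89e-05). Tyrp1, an enzyme of melanin synthesis in pigment cells, stood at 38.6, 33.1, 28.1 and 26.8 FPKM against 6.78, 7.17, 8.05 and 8.46 (1.91 ± 0.15; adjusted p = 3.6e-05). These 3 genes varied little within a group, and each SGC library exceeded each DRG library by more than the spread of either group.

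Others among the 15 varied more between libraries. Adamts17, a matrix protease, stood at 37.5, 6.73, 12.02 and 25.9 FPKM in SGCs and 1.77, 2.36, 3.52 and 3.46 in DRGs, the interferon-inducible GTPase Iigp1 at 8.77, 9.85, 21.9 and 11.2 against 2.61, 3.13, 2.42 and 2.37, and Tcf4, a helix-loop-helix factor, at 64.1, 24.9, 26.1 and 101.7 against 14.5, 10.2, 10.9 and 12.6. Iigp1 was again highest in SGC replicate 3. Tcirg1, a V-ATPase subunit, rose from 8.98 ± 3.37 to 32.5 ± 11.2 FPKM, whereas 14 of the 17 V-ATPase subunits counted above fell. Prpf39, a splicing factor, had the highest difference but was at 0 in 3 DRG libraries and at 10.8 FPKM in the other, and Stard9, a kinesin, was at 0 in DRG replicates 1 and 3. Mybbp1a, Zfp60, 4930444P10Rik, Arhgef26, Lca5 and Trim12a made up the rest, with differences of 1.81 to 2.02. All 15 reached 1 FPKM in all 8 sham SGC libraries, and 8 of them are in the sham neuron table, 5 at 1 FPKM or more in all 6 libraries there.

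The 15 lowest differed by −6.06 to −4.69. Resp18, a protein of secretory granules, stood at 0, 12.05, 22.3 and 2.72 FPKM in SGCs and 449.9, 553, 349 and 254 in DRGs, and Asic3, the acid-sensing channel of sensory neurons, at 0, 0, 0.0641 and 0.425 against 72.4, 71.1, 46.2 and 37.8. Map7d2, a microtubule-associated protein, kept 14.3, 11.5, 22.2 and 34.8 FPKM against 1183, 1023, 889 and 385. The difference was −5.69 for Tuba4a, an alpha-tubulin, −5.32 for Fxyd7, a small membrane protein, −5.17 for the calcium-binding Cpne6, −5.09 for Tagln3, −4.73 for Vsnl1, a calcium sensor, and −4.69 for Ckmt1, a mitochondrial creatine kinase. The others were Trappc3l, Defb42, Tmem59l, Serpinb1a, Sult4a1 and Tspan8, at −5.90 to −4.78. All 15 reached 1 FPKM in all 6 sham neuron libraries and 10 of them in all 8 sham SGC libraries, with the 2 tables scaled separately.

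Genes listed at exactly 0 in a whole group were set apart as possible failed estimates. There were 28 listed at 0 in all 4 DRG libraries, of which 10 exceeded 10 FPKM in every SGC library, and 130 listed at 0 in all 4 SGC libraries. Since the DRGs contain SGCs, a 0 there beside a high SGC value goes against the makeup of the tissue: Iqcc stood at 130 to 168 FPKM in SGCs and Pigp at 115 to 126, both named after their values were seen. The same 2 genes were at 0 in 4 and 3 of the 8 sham SGC libraries and reached 178 and 122 FPKM in others. All 28 of these genes overlap another annotated gene, against 51.8% of all genes tested and 81 of the 204 genes chosen for description. Of the 130, 72 overlap another gene, and 32 were at 0 in all 8 sham SGC libraries as well, among them Cntf, Tagln, a smooth muscle gene, and Shox2. No fold is given for these genes.

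Shares called also moved with gene length. With protein-coding genes split into 5 bins of equal size by summed exon length, from the shortest to the longest bin, the share higher in SGCs went from 12.97% to 22.3% and the share lower from 35.4% to 24.3%. By gene span, the share higher went from 13.5% to 22.2%, while the share lower was 33.0% in the shortest and 33.1% in the longest bin. Of 400 processed pseudogenes 3.5% were higher and 18.8% lower. The part of length in the gene groups above was not tested.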

How the data were processed

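RNA of 4 sorted SGC and 4 whole DRG preparations was sequenced over 3 lanes each, per the labels. The authors deposited expression as FPKM, with decimal commas in this table, which were read as decimal points. Per the submitters' processing notes, STAR, SAMtools, Cufflinks and DESeq2 were used on the mm10 assembly (versions not given), and whether strand was used is not given in the sources used here, so values of overlapping genes are uncertain. FPKM divides by an estimated transcript length, and an exact 0 can be a failed estimate. The authors' differential expression tables were not used here. The files hold no counts, so no counting interval can be given.

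The table's 45952 lines were summed to 45882 genes, of which 45038 matched GENCODE M21 (GRCm38, the same assembly as mm10) for names and positions. Genes with at least 1 FPKM in at least 4 of 8 libraries (12907) were tested on log2(FPKM + 1) with limma 3.58.1 in R 4.3.3 (mean-variance trend, two-sided), with Benjamini-Hochberg adjustment over all of them. This filter lets a gene pass on the group where it is high. Genes listed at 0 in a whole group (130 and 28) stayed in the fit and were counted apart. The script was tested on simulated data first. The sham FPKM tables were scaled separately and only give levels.

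The gene groups, 43 lists and 104 symbol families, were chosen with earlier results of these data known. Genes chosen for description (204) are, per list, the 2 called members with the largest difference in each direction, the 4 SGC markers, the strongest member of the 10 families with the highest share in each direction, 15 genes per direction on no list, and 35 chosen after their values were seen, to illustrate their group. Some of these are not reported here. No gene set test was made. Groups of a list are read against the shares over all genes. Promoters are from RefSeq (GRCm38.p6). Python 3.11.15, pandas 2.3.3 and Matplotlib 3.10.9 made the tables and figures.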

Additional observations from a re-analysis of the deposited data

Results flagged for a closer look

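Values of the 204 genes chosen for description, 35 of them after their values were seen, were screened within each group of 4 libraries on the log2(FPKM + 1) scale for a library whose gap to the nearest other is a larger share of the group's range than Dixon's 95% limit for 4 values. Of 408 groups of values 29 met this; chance alone gives about 1 in 20. The FPKM of the library that stands apart is in brackets.

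SGC replicate 2 was the highest for S100a8 (0.143), Cd79a (0.495), Cd79b (2.11), Isl1 (6.78), Stab1 (4.12), Got1 (11.8) and Kcnab2 (6.26), a set that holds neuronal, lymphocyte, neutrophil and macrophage genes, and the lowest for Cdh19 (46.5). SGC replicate 3 was the lowest for Mal (85.7), Axl (11.6), Acsbg1 (145), Notch2 (6.42), Dock1 (8.14) and Stag2 (11.6) and the highest for Nmb (36.5). SGC replicate 1 was the lowest for Clcn2 (2.19), and SGC replicate 4 the highest for Slco1a4 (21.5) and Nr2f1 (64.02).

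DRG replicate 4 was the highest for Erbb2 (3.38), Lamc1 (38.8), Kcnj10 (31.9), Prpf39 (10.8) and Notch2 (4.396), and the lowest for Htr3a (12.6). DRG replicate 2 was the lowest for H2-Q4 (0.978) and Zfp60 (3.29) and the highest for Mybbp1a (12.6). DRG replicate 1 was the highest for Cacnb3 (19.3), and DRG replicate 3 for Stag2 (76). For Erbb2, Prpf39, S100a8, Cd79a, Cd79b, Stab1 and Nmb the other 3 libraries of the group were all listed at 0. For Stag2 the deviating SGC and DRG libraries carry the same number, and each lies between the other libraries of its own group and those of the other group.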

How the results depend on the processing

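Of 203 named genes that were called, among them genes chosen after their values were seen, 182 kept their direction and call in every one of the 17 alternatives in which they were tested, 21 lost the call in at least 1, and none reversed. Of the 21, Canx, Chl1, Col1a2, Ddx58, Dnajc3, Entpd2, Erbb3, Hspa1a, Mal and Nr4a1 lost it only after rescaling to a common sum, and Acbd7 only with a pseudocount of 0.1. Genes higher in SGCs numbered 2156, and 3673 after quantile normalization or 644 after rescaling to a common sum; leaving out 1 library at a time gave 1605 to 2237. Genes lower in SGCs numbered 3475, and 2233 to 3458 with 1 library left out, the lowest without DRG replicate 1. With 3 DRG libraries, a gene seen only in DRGs cannot reach 1 FPKM in 4 libraries, so fewer genes were tested (12010 to 12057). For the other shifts the cause was not tested. Rescaling to the protein-coding sum, an alternative chosen after seeing the data, gave 2748 and 2804, no filter 1815 and 3867, a filter of 5 FPKM 1686 and 2407, a pseudocount of 0.1 2133 and 3323, array weights 2351 and 3679, and leaving out genes at 0 in a group 2140 and 3461.

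SGC and DRG libraries share replicate numbers, but deviations from the group means of same-numbered libraries correlated at 0.003, 0.003, 0.186 and 0.089, so the numbers were not taken as pairs, and SGC replicates 1 and 2 correlated best with another number. A fit with the replicate number as a block called 1898 genes higher and 3131 lower. With it the calls of Maml3 (adjusted p = 0.0608) and Wnt5a (0.065) were lost and those of the other named genes kept, 5 antioxidant genes in place of 10 were lower and 4 lysosomal genes in place of 8 were higher. Depth is unknown, so no lower limit of detection can be stated.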
